A study of Mus musculus with 6 samples.

Results

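The copine genes were examined in the tibialis anterior (TA) muscle of old mice treated with BML-260 or with vehicle. The family was chosen by the low level of Cpne2 (gene identifier 234577) with BML-260 in these same libraries, where it ranked 1 of 16188 tested genes by p-value. For that reason the values of Cpne2 are given below as a description, without a test, and the question put to the data was whether the other copine genes were also lower. Of the 6 copine genes named for this purpose (Cpne1, Cpne2, Cpne3, Cpne5, Cpne7 and Cpne8), 5 were listed with an expression level among the 16800 genes of the authors' level tables, and all of these 5 passed the filter on low counts. Cpne5 was not listed there and was not tested.

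RNA sequencing was carried out on whole TA muscle of male C57BL/6J mice, 3 given vehicle (DMSO and Tween 80) and 3 given BML-260 at 5 mg/kg by daily intraperitoneal injection for 1 month. BML-260 is the small molecule that the study used to target the phosphatase DUSP22. The sample labels give an age of 24 months for both groups, and the ages stated in the paper vary between its sections. Each library was made from 1 mouse, so the p-values measure the spread between mice.

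Copines are cytoplasmic proteins with a pair of calcium-binding C2 domains followed by a von Willebrand factor A-like domain. When calcium rises in the cell they bind to phospholipid membranes through the C2 domains, and the A domain is thought to carry partner proteins there. Cpne1, Cpne2 and Cpne3 are expressed in many tissues, whereas Cpne4, Cpne5, Cpne6, Cpne7 and Cpne9 are known mainly from the nervous system and a few other organs.

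The promoters of the copine genes with an available sequence are shown first. Cpne2 and Cpne8 were lower in every BML-260 library than in any vehicle library, as were 6.91% of all tested genes. For Cpne2 this follows from the choice of the family. Cpne1 overlapped between the groups. A link between promoter sequence and the difference between the groups was not tested. The windows reach from 250 bases before to 50 bases after the transcription start and were taken from RefSeq sequence of the mouse assembly GRCm38.p6. The table held entries for Cpne1, Cpne2 and Cpne8 among the 5 listed genes. Cpne3 and Cpne7 had no entry. The sequences are written 5′ to 3′ on the strand of the gene, and capitals mark CG dinucleotides. The window of Cpne2 lies at chr8:94532778-94533077 on the plus strand, that of Cpne8 at chr15:90679339-90679638 on the minus strand, and that of Cpne1 at chr2:156111916-156112215 on the minus strand. The Cpne2 window begins after the RefSeq start of the gene at 94532674 and holds its GENCODE start at 94532990. The sequence around that first RefSeq start was not examined.
Cpne2: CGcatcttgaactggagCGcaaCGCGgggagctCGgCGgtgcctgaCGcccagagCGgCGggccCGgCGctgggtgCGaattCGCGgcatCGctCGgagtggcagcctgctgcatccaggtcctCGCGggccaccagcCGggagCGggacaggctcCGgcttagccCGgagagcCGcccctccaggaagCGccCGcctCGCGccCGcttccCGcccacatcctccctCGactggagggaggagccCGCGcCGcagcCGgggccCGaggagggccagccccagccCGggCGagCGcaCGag
Cpne8: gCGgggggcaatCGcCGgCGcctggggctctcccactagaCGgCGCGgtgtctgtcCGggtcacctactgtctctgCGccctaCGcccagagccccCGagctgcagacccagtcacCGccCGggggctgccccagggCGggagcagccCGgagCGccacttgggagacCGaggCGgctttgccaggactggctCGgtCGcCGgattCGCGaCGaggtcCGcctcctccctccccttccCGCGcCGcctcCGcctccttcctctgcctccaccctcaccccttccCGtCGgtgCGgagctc
Cpne1: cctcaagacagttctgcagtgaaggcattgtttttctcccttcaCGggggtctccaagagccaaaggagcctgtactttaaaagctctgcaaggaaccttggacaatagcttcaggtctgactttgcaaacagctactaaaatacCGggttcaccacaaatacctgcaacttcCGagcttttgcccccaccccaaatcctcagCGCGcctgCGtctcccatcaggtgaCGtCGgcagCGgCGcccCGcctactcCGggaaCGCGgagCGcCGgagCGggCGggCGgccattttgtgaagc
The Cpne2 window held 39 CG dinucleotides and had a GC content of 76.0%. The Cpne8 window held 32 at a GC content of 73.7%, and the Cpne1 window held 19 at 57%. Over all 32851 windows of the same length, the median was 7 CG dinucleotides and the median GC content 52.7%, so each of the 3 promoters was richer in CG than the typical mouse promoter. Since the study concerns FOXO3a and JNK signaling, the windows were searched on both strands for a forkhead motif (GTAAACA) and an AP-1 motif (TGACTCA or TGAGTCA, which are the same site read on opposite strands). The forkhead motif was found in 3.65% of all windows and the AP-1 motif in 5.20%, and neither was found in the windows of Cpne1, Cpne2 or Cpne8.

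Sequencing depth was 39793301 to 52165766 counts per library with vehicle and 39522890 to 56998875 with BML-260. Muscle fiber genes were abundant in every library, with a sum over the list of 61530 to 121200 CPM (counts scaled to a common library size). Vehicle replicate 3 stood apart from the others: its sum over the muscle fiber list was the lowest, and it was the highest library for 31.4% of all tested genes. The threshold used here was an unadjusted p under 0.05 and at least 1.3-fold up or down. Across all genes it was passed by 931 genes in edgeR, 145 higher and 786 lower with BML-260. An adjusted p under 0.05 (Benjamini-Hochberg) was found for 0 genes in edgeR, beside 966 with an unadjusted p under 0.05. The paper's text states no fold cutoff for its own count of differentially expressed genes, so these counts are not comparable with it. With DESeq2, 95 genes had an adjusted p under 0.05. Dusp22 itself had a log2 fold change of 0.23 with a standard error (SE) of 0.24 and an adjusted p of 0.823 (edgeR, Benjamini-Hochberg).

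Levels of different genes were compared as TPM, the unit of the authors' level tables, which is scaled for transcript length and library total. In TPM, Cpne2 was the most abundant copine transcript in vehicle-treated muscle, and with BML-260 it ranked 3 of 5. The TPM of Cpne2 was 14.4, 19.4 and 21.8 in vehicle replicates 1, 2 and 3. In the BML-260 libraries it was 4.23, 3.74 and 4.53. The groups were far apart, with means of 18.5 ± 3.75 and 4.16 ± 0.398 TPM (SD, n = 3 in each group).

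Cpne3 and Cpne1 came next in vehicle-treated muscle and led the family with BML-260. The vehicle means were 9.43 ± 2.12 TPM for Cpne3 and 9.04 ± 2.72 TPM for Cpne1 (SD, n = 3). With BML-260 they were 7.81 ± 0.676 and 7.77 ± 0.683 TPM (SD, n = 3). Cpne1 and Cpne3 overlapped in both groups and could not be ordered, while all vehicle libraries had more Cpne2 than either gene and all BML-260 libraries had less. Cpne8 followed with 3.86 ± 3.72 TPM in vehicle and 1.54 ± 0.0485 TPM with BML-260 (SD, n = 3), and its vehicle range of 1.66 to 8.16 TPM overlapped that of Cpne1. Cpne7 was the lowest listed member, with 0.294 ± 0.221 and 0.204 ± 0.061 TPM (SD, n = 3).

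The 5 genes together summed to 31.9, 37.0 and 54.6 TPM in the vehicle libraries and to 20.3, 22.1 and 22.1 TPM in the BML-260 libraries. As CPM the sums were 68.5, 79.9 and 80.5 in vehicle and 53.8, 53.2 and 52.3 with BML-260. Without Cpne2 the means of the TPM sum were 22.6 ± 8.77 and 17.3 ± 1.17 TPM (SD, n = 3), so most of the difference in the TPM total lay in Cpne2. The sums without Cpne2 were 17.48, 17.64 and 32.75 TPM in vehicle replicates 1, 2 and 3. With BML-260 they were 16.07, 18.37 and 17.55 TPM, so only vehicle replicate 3 stood above them all. Cpne2 made up 45.2%, 52.3% and 40.0% of the family total in vehicle replicates 1, 2 and 3, and 20.8%, 16.9% and 20.5% in the BML-260 libraries. Within each library the ratio of Cpne2 to Cpne1 was 1.90, 2.63 and 1.79 in vehicle and 0.605, 0.459 and 0.553 with BML-260. These ratios compare genes of 1 library with each other and do not depend on how the libraries were scaled. Cpne2 exceeded Cpne1 in every vehicle library and was below it in every BML-260 library.

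**Figure D1:**
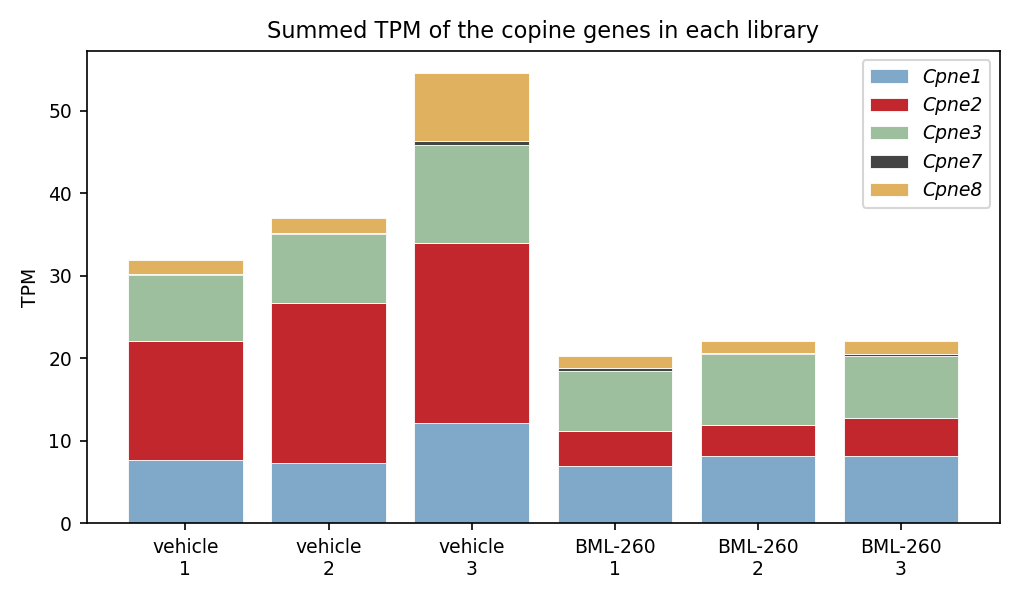
Summed TPM of the 5 listed copine genes in each of the 6 libraries, with 1 stacked bar per library and 1 colour per gene. The Cpne2 segment is the largest in every vehicle bar and is smaller than the Cpne1 and Cpne3 segments in every BML-260 bar, and the tallest bar, vehicle replicate 3 at 54.6 TPM, also holds the largest Cpne8 segment.

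For comparison between groups, counts were divided by the library total and by TMM factors, which allow for a few abundant genes taking up much of a library, and are given as CPM. Cpne2 lies on chromosome 8 at 94532990 to 94570531 (plus strand, GRCm38, GENCODE). It had 20.2, 28.6 and 21.8 CPM in vehicle replicates 1, 2 and 3, from 985, 1041 and 1370 counts. With BML-260 it had 6.51, 5.08 and 6.23 CPM, from 351, 238 and 236 counts. Every BML-260 library was below every vehicle library, and the mean was 74.8% lower. The log2 fold change of BML-260 over vehicle was -1.99 (SE 0.19), and it lay between -2.09 and -1.83 whichever library was left out. Vehicle replicate 3 was not the highest library for Cpne2: its CPM was 0.894 times the mean of the other vehicle libraries.

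Among the other 4 tested copines, 1 (Cpne8) passed the threshold, as a decrease, and 3 (Cpne1, Cpne3 and Cpne7) did not. Over all tested genes 5.75% passed it in either direction and 4.86% passed it as decreases. None of the 4 had an adjusted p under 0.05 over all tested genes in edgeR, and 1 had an unadjusted p under 0.05.

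Cpne8 (66871) lies on chromosome 15 at 90487482 to 90679432 (minus strand). It had 4.11, 4.10 and 10.4 CPM in vehicle replicates 1, 2 and 3, from 200, 149 and 652 counts. With BML-260 it had 3.11, 2.71 and 3.06 CPM, from 168, 127 and 116 counts. Vehicle replicate 3 was 2.53 times the mean of the other vehicle libraries, which were close to each other and a little above the BML-260 libraries. The groups did not overlap, as was the case for decreases in 6.91% of all tested genes and in either direction in 12.1%. The log2 fold change was -1.07 (SE 0.37, 95% confidence interval -1.92 to -0.23), with an unadjusted p of 0.019 and an adjusted p of 0.780 (edgeR, Benjamini-Hochberg). Without vehicle replicate 3 it was -0.47 (unadjusted p 0.043 in edgeR), still past the threshold. Without BML-260 replicate 2 the unadjusted edgeR p was 0.064 and without BML-260 replicate 3 it was 0.0501, both short of the threshold.

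Cpne1 (266692), a copine expressed in most tissues, lies on chromosome 2 at 156071842 to 156111965 (minus strand). It had 16.2, 16.5 and 18.4 CPM in vehicle and 16.3, 16.7 and 17.1 CPM with BML-260. The groups overlapped almost completely, with a log2 fold change of -0.031 (SE 0.13, 95% confidence interval -0.33 to 0.26, adjusted p 0.955 in edgeR with Benjamini-Hochberg adjustment). Its locus overlaps Rbm12, an RNA-binding protein gene on the same strand, over 20008 bases. The predicted protein-coding gene Gm28036, also on the same strand, overlaps it over 40121 of its 40124 bases and was not tested. Reads from the shared regions could have been counted for any of these genes. Rbm12 had a log2 fold change of -0.27 (SE 0.20), with an unadjusted edgeR p of 0.217.

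Cpne3 (70568), which encodes a copine known to bind the receptor ERBB2, lies on chromosome 4 at 19519254 to 19570108 (minus strand). It had 27.7, 30.4 and 29.2 CPM in vehicle and 27.4, 28.5 and 25.6 CPM with BML-260. The groups overlapped, and the log2 fold change was -0.099 (SE 0.13, 95% confidence interval -0.39 to 0.19, adjusted p 0.845 in edgeR with Benjamini-Hochberg adjustment).

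Cpne7 (102278) lies on chromosome 8 at 123117374 to 123135182 (plus strand), on the same chromosome as Cpne2 but far from it. It was close to the limit of detection, with 15, 9 and 38 counts in vehicle and 25, 12 and 11 counts with BML-260. In CPM these were 0.308, 0.248 and 0.606 against 0.463, 0.256 and 0.290, and vehicle replicate 3 was again the highest. The log2 fold change was -0.21 (SE 0.53, 95% confidence interval -1.42 to 0.99, adjusted p 0.918 in edgeR with Benjamini-Hochberg adjustment), so that a moderate change in either direction was not detectable at this depth. Without vehicle replicate 3 the sign turned, to 0.28, as did that of Cpne1, to 0.032. The locus lies inside the predicted gene Gm20388 on the same strand, which was not tested.

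The remaining copines were barely present. Cpne5, on chromosome 17, had 0, 0 and 5 counts in vehicle and 6, 6 and 0 counts with BML-260. Cpne6 had 8 counts in vehicle replicate 3, 8 in BML-260 replicate 3 and 0 elsewhere, and Cpne9 had 0, 2 and 6 counts in vehicle and 0 in each BML-260 library. Cpne4 had 0 counts in all 6 libraries, which allows up to 0.0478 to 0.0825 CPM at 3 counts per library, for counting error only. None of these 4 genes was tested.

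The difference between Cpne2 and the other members was not tested, because the family was chosen by the low value of Cpne2.

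**Figure D2:**
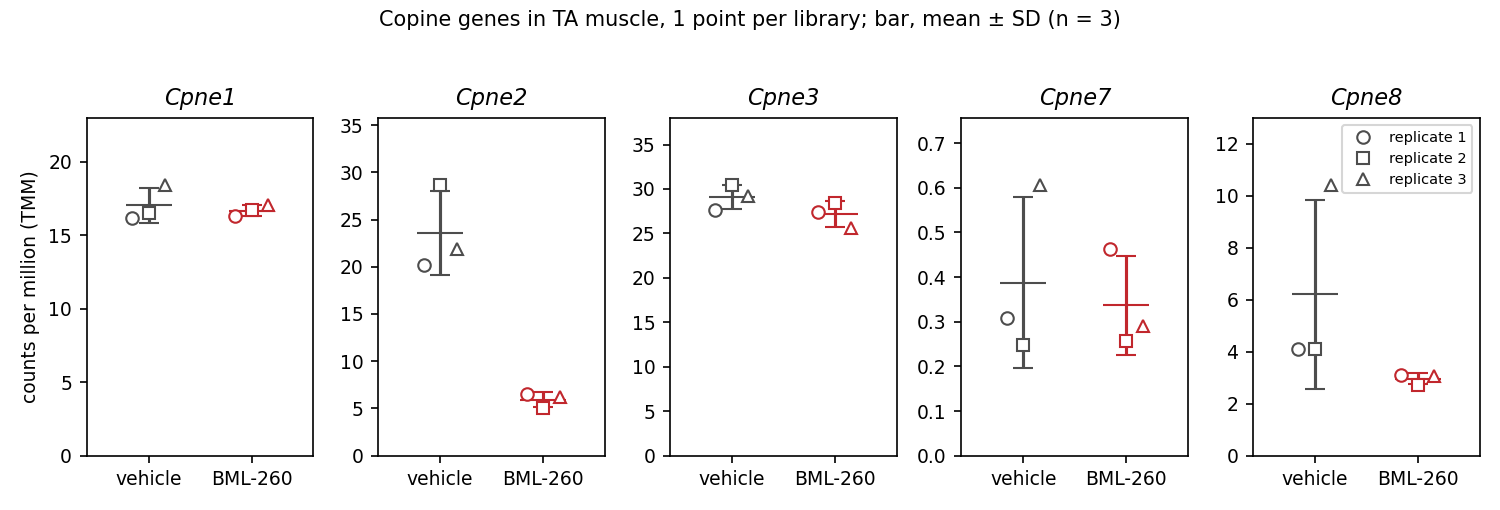
CPM of the 5 listed copine genes in vehicle and BML-260 libraries, with 1 panel per gene, 1 point per library (shape marks the replicate number) and bars for the mean ± SD (n = 3). The axes start at 0 and differ between panels. Cpne2 and Cpne8 have groups that do not overlap, with vehicle replicate 3 at 10.4 CPM for Cpne8, while the groups of Cpne1, Cpne3 and Cpne7 overlap.

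**Figure D3:**
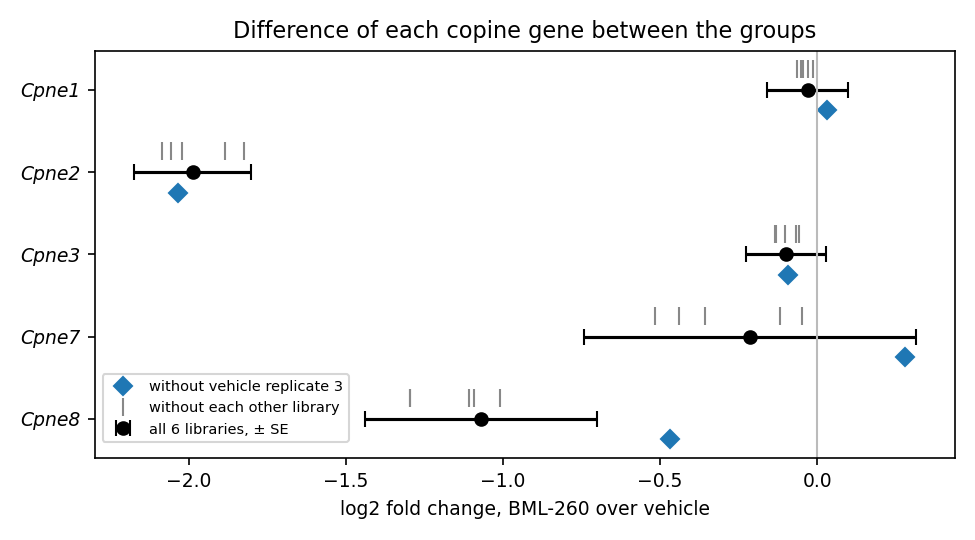
Log2 fold change of BML-260 over vehicle for the 5 listed copine genes, with black points and bars for all 6 libraries (± SE), blue diamonds without vehicle replicate 3 and grey ticks without each other library. Leaving out vehicle replicate 3 moved Cpne8 from -1.07 to -0.47 and Cpne2 from -1.99 to -2.03.

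Vehicle replicate 3 was also the library with the highest ratio of TPM to CPM for each of the 5 genes. Its TPM of Cpne1 was 1.63 times the mean of the other vehicle libraries, whereas its CPM was 1.13 times that mean. For Cpne8 the factors were 4.77 in TPM and 2.53 in CPM. In TPM the coefficient of variation among the vehicle libraries ran from 20.3% for Cpne2 to 96.5% for Cpne8. On log2(TPM + 1) Cpne8 did not pass the threshold, with a log2 fold change of -0.68 (unadjusted p 0.154, limma).

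The genes on either side of each copine were looked at next, to see whether the low level of Cpne2 extended to its neighbours. Of the 6 neighbours that were tested, 1 passed the threshold, against 5.75% of all tested genes. It was Nlrc5, a regulator of MHC class I genes, which ends 5402 bases before Cpne2. Nlrc5 had 4.13, 3.85 and 4.90 CPM in vehicle and 2.54, 2.30 and 3.11 CPM with BML-260. All BML-260 libraries were below all vehicle libraries, with a log2 fold change of -0.70 (SE 0.22), an unadjusted p of 0.011 and an adjusted p of 0.699 (edgeR, Benjamini-Hochberg). It lay between -0.82 and -0.59 whichever library was left out, and did not pass the threshold on log2(TPM + 1), where it was -0.37. On the other side, 4411 bases after Cpne2, Fam192a had 17.2, 24.0 and 18.6 CPM in vehicle and 17.3, 15.8 and 17.6 CPM with BML-260. Its groups overlapped, and the log2 fold change was -0.24 (SE 0.16, unadjusted p 0.174 in edgeR). The tested neighbours of the other copines were Nfs1 beside Cpne1, Rmdn1 beside Cpne3, and Rpl13 and Sult5a1 beside Cpne7, with log2 fold changes of 0.20, 0.22, -0.23 and -0.75, none past the threshold. Spag4, Cngb3, Gm18372 and Gm3861 were not tested.

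The genes whose levels followed each copine most closely over the 6 libraries were found by Pearson's r of log2 CPM among all tested genes. The 6 libraries fall into both groups, so any gene that differed between the groups shares part of the pattern of Cpne2, and the values of r are only descriptive. For Cpne2 they were Mamld1 (r = 0.996), Usp27x (0.991), Klf13 (0.989), Iah1 (0.985) and Efhd2 (0.979). Their differences were much smaller than that of Cpne2, with log2 fold changes from -0.71 for Iah1 to -0.19 for Klf13, a zinc-finger transcription factor with 27.8, 29.2 and 27.9 CPM in vehicle and 24.6, 24.7 and 24.8 CPM with BML-260. For Cpne8 they were Tgfbr3 (r = 0.997), the ferritin light chain gene Ftl1 (0.996) and Lyz2 (0.996), the lysozyme gene of macrophages and neutrophils. Lyz2 had 47.7, 53.5 and 163.1 CPM in vehicle and 36.9, 28.0 and 37.1 CPM with BML-260, with vehicle replicate 3 far above the rest as for Cpne8. For Cpne1 they were Secisbp2l (0.998), 4931406P16Rik (0.997) and Fkbp5 (0.995), for Cpne3 Taf9b (0.991), Trmt5 (0.987) and Gm20783 (0.981), and for Cpne7 Zfp217 (0.991), Tmem256 (0.987) and Ccdc3 (0.987). Vehicle replicate 3 was the highest library for Cpne1, Cpne7 and Cpne8 and for each gene named beside them. These values of r therefore lean on that library, which was the highest for 31.4% of all tested genes.

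Many other C2-domain proteins also bind membranes when calcium rises. A list of 42 C2-domain genes held ferlins, synaptotagmins, extended synaptotagmins and others. Whether each of their proteins binds calcium was not examined. Of the 42 genes 24 were tested, 0 passed the threshold as higher, 2 as lower and 22 did not pass. Over all tested genes 4.86% passed as lower, so that the count is near the background. The median log2 fold change of the 24 was -0.098, beside -0.0039 over all tested genes. Dysf, the dysferlin gene of membrane repair in muscle, had 94.9, 95.7 and 83.1 CPM in vehicle and 85.2, 97.8 and 125.4 CPM with BML-260, with overlapping groups and a log2 fold change of 0.17 (SE 0.18). Its relative Myof had a log2 fold change of -0.51 (SE 0.27, unadjusted edgeR p 0.097). The 2 lower genes were Mctp1, a membrane protein with several C2 domains, and Prkcb, protein kinase C beta. Mctp1 had 2.59, 3.80 and 7.08 CPM in vehicle and 1.89, 2.20 and 1.58 CPM with BML-260 (log2 fold change -1.25, SE 0.37, adjusted p 0.699 in edgeR with Benjamini-Hochberg adjustment). Prkcb had 3.02, 2.20 and 5.02 CPM in vehicle and 2.19, 0.960 and 1.21 CPM with BML-260 (log2 fold change -1.23, SE 0.41, adjusted p 0.752 in edgeR with Benjamini-Hochberg adjustment). Both were highest in vehicle replicate 3, without which the log2 fold changes were -0.74 and -0.84. Prkcb did not pass without BML-260 replicate 2 or without BML-260 replicate 3.

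Annexins bind membranes through calcium without C2 domains. Of 12 annexin genes 10 were tested, and 1 passed the threshold, as lower, against 4.86% of all tested genes, so this count is also near the background. The median log2 fold change was -0.24, and vehicle replicate 3 was the highest library for 8 of the 10 genes, against 31.4% of all tested genes. The gene past the threshold was Anxa4, with 17.0, 14.9 and 30.4 CPM in vehicle and 14.3, 12.1 and 11.2 CPM with BML-260 (log2 fold change -0.73, SE 0.27, unadjusted p 0.025 in edgeR). Without vehicle replicate 3 its log2 fold change was -0.34 and it was no longer past the threshold, nor was it without BML-260 replicate 2 or 3.

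Of 12 genes of proteins known to bind a copine, all were tested and 0 passed the threshold in either direction. With 5.75% of all tested genes past it, a count of 0 in a list this short is near the background. The median log2 fold change of the list was 0.029, with 7 genes above 0 and 5 below. Erbb2, the receptor gene, had a log2 fold change of -0.24 (SE 0.27), the adaptor gene Shc1 -0.23 (SE 0.14), and the scaffold gene Rack1 -0.17 (SE 0.23). Rela, the NF-kappa-B subunit, had -0.077 (SE 0.16) and Cdc42bpb -0.17 (SE 0.18). The others were between 0.026 and 0.28: the kinase gene Map2k1 0.026, Rdx 0.032, Ube2m 0.053, Rac1 0.069, Ube2o 0.093, Ywhag 0.23 and the phosphatase gene Ppp5c 0.28. An unadjusted p under 0.05 was found for 0 of the 12 in edgeR, and 0 of the 12 passed the threshold with DESeq2 or limma voom with quality weights.

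Whole muscle holds several cell types, and in such samples fewer cells of a type and less RNA per cell cannot be told apart. Macrophage markers other than Cd68 moved in the same direction as Cpne8 and Cpne2. Cd68 had overlapping groups and a log2 fold change of 0.0018 (SE 0.485, unadjusted edgeR p 0.997). Of 7 macrophage genes 6 passed the threshold as lower (median log2 fold change -1.31), against 4.86% of all tested genes, and vehicle replicate 3 was the highest library for all 7, against 31.4% of all tested genes. Their summed level was 79.6, 79.0 and 203.9 CPM in vehicle and 58.7, 50.4 and 52.7 CPM with BML-260. No macrophage marker was at 0 in any library. Divided by its vehicle mean, the macrophage sum lay close to Cpne8 in each library. This was not particular to macrophages. The summed erythroid genes were at 0.559, 0.638 and 1.80 times their mean in vehicle replicates 1, 2 and 3. In BML-260 replicates 1, 2 and 3 they were at 0.528, 0.469 and 0.618 times that mean. Cpne2 was lower than the macrophage sum in the BML-260 libraries and not raised in vehicle replicate 3. The part of macrophages in the difference of either gene was not tested.

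Of 5 neutrophil genes 4 were tested and all 4 passed as lower (4.86% of all tested genes did), with sums of 7.62 to 169.2 CPM in vehicle and 1.90 to 3.75 CPM with BML-260, and Retnlg was at 0 in BML-260 replicates 1 and 2. Of 8 genes typical of denervated or regenerating fibers 6 passed as lower (median log2 fold change -1.68, against the same 4.86%), among them Runx1 with 14.1, 44.4 and 32.9 CPM in vehicle and 5.51, 4.10 and 5.83 CPM with BML-260. The sum over this list overlapped, with 437.0 to 778.2 CPM in vehicle and 482.5 to 640.6 CPM with BML-260. Myh8 held most of it, with 344.7 to 618.1 CPM in vehicle and a log2 fold change of 0.17 that did not pass the threshold. Cpne2, like Runx1, was highest in vehicle replicate 2. The part of denervated fibers or neutrophils in the level of Cpne2 was not tested.

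Among the other marker lists, 1 of 5 fibroblast genes, 1 of 3 tested adipocyte genes and 2 of 4 erythroid genes passed as lower, beside 4.86% of all tested genes. None of the 5 endothelial, 5 smooth muscle and pericyte, 5 Schwann cell, 4 satellite cell and 6 muscle fiber genes passed. The summed adipocyte and erythroid genes were highest in vehicle replicate 3, at 75.8 and 2015 CPM, against 4.87 to 6.69 and 624.5 to 713.1 CPM in the other vehicle libraries. Of 5 lymphocyte genes 0 had enough counts to be tested.

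**Figure D4:**
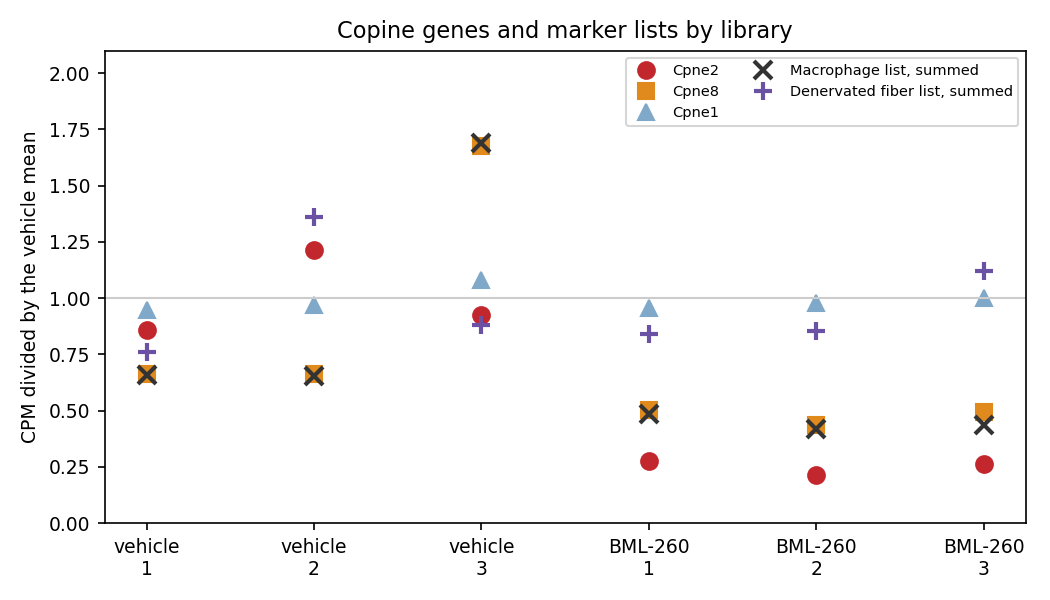
CPM of Cpne1, Cpne2 and Cpne8, and summed CPM of the macrophage and denervated fiber lists, each divided by its own mean over the 3 vehicle libraries (horizontal line at 1), for each of the 6 libraries. Cpne8 and the macrophage sum lie together and peak in vehicle replicate 3, Cpne1 stays near 1 in all libraries, and Cpne2 is the lowest series in each BML-260 library. Myh8 holds most of the denervated fiber sum. The erythroid sum, which is not drawn, also peaks in vehicle replicate 3.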

How the data were processed

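RNA from 6 TA muscles was made into libraries with a stranded total RNA kit. Per the labels and the study's methods, the authors trimmed reads with Trimmomatic 0.38, mapped them with HISAT2 2.1.0 and Bowtie2 2.3.4.1 and assembled transcripts with StringTie 2.1.3b, and the submitters' processing notes name the build mm10. The authors deposited unnormalized read counts per gene and TPM values per library, scaled for transcript length and library total. How strand, overlapping genes and multi-mapped reads were counted is not given in the sources used here.

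Counts were tested with edgeR 4.0.16 in R 4.3.3 (filterByExpr with a minimum count of 10, TMM, quasi-likelihood F-test, Benjamini-Hochberg adjustment over all 16188 tested genes), and checked on simulated data. The SE was the log2 fold change divided by the square root of F. DESeq2 1.42.0, limma 3.58.1 on log2 TPM, other scalings and filters, a replicate block and leaving out each library were alternatives. Figures used matplotlib 3.10.9 in Python 3.11.15.

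The members, gene lists and tests were chosen with earlier results of these data known. Named genes were the copines, their nearest annotated neighbours, the 5 genes most correlated with Cpne2 and 3 with each other member, the partner genes, list genes past the threshold, Dysf, Myof and Dusp22. Rbm12, Runx1, Myh8 and Retnlg were named after their values were seen. Alternatives for annexins, the neighbours of Cpne2, Mctp1 and Prkcb were added after seeing the data.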

Additional observations from a re-analysis of the deposited data

How the results depend on the processing

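The log2 fold change of Cpne2 lay between -2.11 and -1.83 over 15 alternatives, and that of Cpne3 between -0.25 and -0.058. Cpne1 changed sign without vehicle replicate 3 (0.032) and with limma voom and quality weights (0.0060), and lay between -0.065 and 0.032 with each library left out. Cpne7 changed sign in the same settings (0.28 and 0.20), with a range of -0.52 to 0.28 when leaving out each library, and had no value where at least 10 counts were required in every library. Cpne8 stayed below 0 in all 15. The number of copines other than Cpne2 past the threshold was 0 on log2(TPM + 1) and on log2(TPM + 0.1), and 0 to 1 with each library left out (0 without BML-260 replicate 2 or 3). The number of all genes past the threshold was 1416 with no filter on low counts and 503 on log2(TPM + 1), and 503 to 2223 with each library left out. The number of C2-domain genes was 1 on log2(TPM + 1) and 1 to 3 with each library left out. The number of annexins was 0 to 2, and that of partner genes 0 throughout. The share of Cpne2 in the family, taken from CPM in place of TPM, was 30.8% in vehicle and 11.2% with BML-260. In CPM, which is not scaled for transcript length, Cpne3 had the largest share, at 38.3% in vehicle and 51.1% with BML-260. The causes were not tested.

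The titles number the replicates 1 to 3 in each group, but nothing states that equal numbers share a litter or day. The deviations of equally numbered libraries from their group means correlated at 0.16, 0.054 and 0.11 across genes, so the numbers were not taken as pairs, although each library correlated best with its own number, a hint from the data and not from the design. With a replicate block 1057 genes passed the threshold, Cpne2 had a log2 fold change of -1.98 and Cpne8 one of -0.92, and no call of a copine gene changed.

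With 3 mice per group and a vehicle library that stands apart, the SE of 0.53 for Cpne7 leaves it undecided, and the low counts of Cpne5, Cpne6 and Cpne9 allow no comparison.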
